A study of Danio rerio with 16 samples.

Results

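Xanthophores and iridophores are the yellow and the silver pigment cells of zebrafish, and 9 genes of their pigment synthesis and specification were followed here in whole embryos with and without the fibrillin gene fbn3. The genes were taken from the count table by name. They were the pteridine and xanthophore genes gch2, pts, xdh and aox5, the iridophore genes pnp4a, ltk, ednrba and gpnmb, and tfec, which marks precursors shared by pigment lineages. All 9 names had 1 row each among the 32520 genes of the count table, and all 9 were kept among the 23555 genes left after genes with low counts were removed. RNA sequencing was performed on 15 libraries, each from a pool of 10 whole embryos. The groups were fbn2b +/+ embryos (WT) at 1 day post fertilization (dpf; n = 4) and at 2 dpf (n = 3), and fbn2b -/- embryos (fbn3-/-) at 1 dpf (n = 3) and at 2 dpf (n = 5), where fbn2b is the label's name for fbn3. No group received a treatment according to the labels.

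The mutants came from stable CRISPR/Cas9 lines outcrossed to WT fish of the AB background, and the WT embryos are described as siblings. Injected eggs had carried an endothelial or a neutrophil reporter transgene, and the sources used here do not say whether the sequenced embryos did, which mutant allele they had, or whether a pool held mildly or severely affected embryos. The comparison of genotypes was designed to find transcriptional changes at the onset of the cardiovascular phenotype. Pigment cells are a small part of a whole embryo, and in such bulk RNA fewer cells of a type and less RNA per cell cannot be told apart.

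All pigment cells of the zebrafish body arise from the neural crest. Xanthophores make coloured pteridines from GTP, with gch2, a GTP cyclohydrolase, at the first step and pts, 6-pyruvoyltetrahydropterin synthase, at the next, while xdh (xanthine dehydrogenase) and aox5 (an aldehyde oxidase) act on later pterins. Iridophores reflect light from stacks of guanine crystals. Their guanine comes from purine synthesis and from purine nucleoside phosphorylases such as pnp4a. The receptor tyrosine kinase ltk, bound by the Alkal cytokines, specifies iridophores from crest cells that express tfec, a transcription factor of the Mitf family. The endothelin receptor ednrba is needed for the iridophores of the adult stripes, and gpnmb encodes a membrane glycoprotein of pigment organelles. None of the 9 is exclusive to these cells: gch2 and pts also serve the synthesis of the cofactor tetrahydrobiopterin and are used by melanophore precursors, xdh degrades purines in other tissues, and gpnmb is also expressed in retinal pigment epithelium and macrophages.

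Total counts ranged from 41473603 to 179887580 per library, and the lowest count of any of the 9 genes was 38 reads of gpnmb. Levels are given as CPM, the counts of a gene relative to the size of its library, scaled with TMM factors. Because CPM is not divided by gene length, levels were compared between libraries and not between genes. The mutated gene, fbn2b in the table, measured 194 ± 100.1 CPM (mean ± SD, n = 4 libraries) in WT and 23.9 ± 4.65 (n = 3) in fbn3-/- at 1 dpf, and at 211 ± 41.3 (n = 3) and 18.5 ± 2.09 (n = 5) at 2 dpf, with no overlap between genotypes. For this report, libraries were divided into a set of 9 with lower and a set of 6 with higher library numbers. The numbers run on without a gap at the cut, and neither the labels nor the paper calls this division a batch. All 3 fbn3-/- libraries at 1 dpf were in the lower set, together with WT replicates 1 and 2 at 1 dpf, WT replicate 1 at 2 dpf and fbn3-/- replicates 1 to 3 at 2 dpf. At 1 dpf a comparison of genotypes was thus possible within the lower set only.

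**Figure D1:**
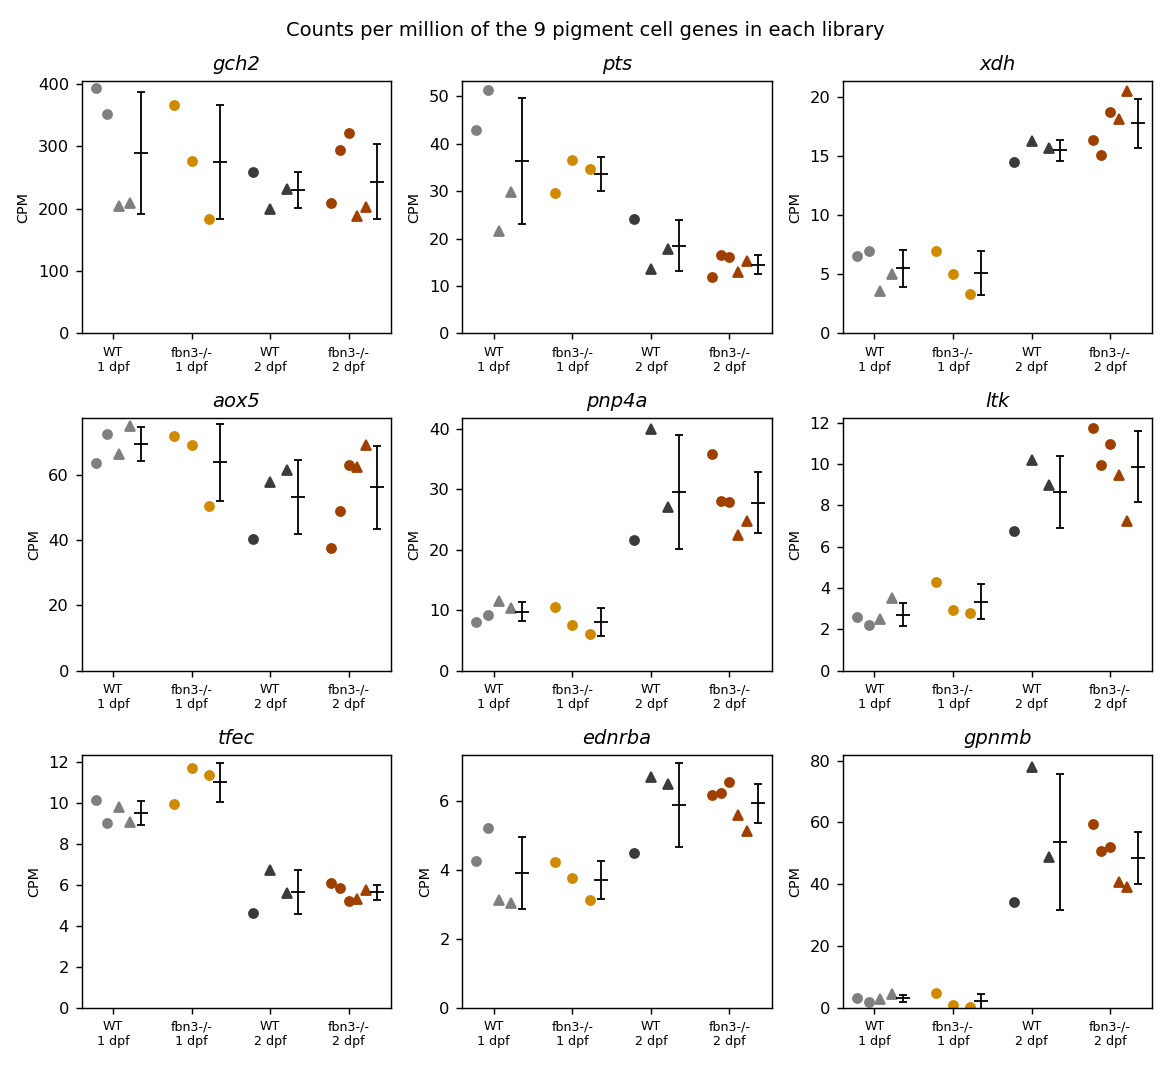
CPM (y axis, linear, from 0) of each of the 9 genes in every library, by group (x axis), with circles for the lower and triangles for the higher library numbers, and the mean ± SD beside each group. The levels of gpnmb, ltk, pnp4a and xdh at 2 dpf all lie above those at 1 dpf, tfec lies below, and the genotypes overlap for all 9 genes at both stages.

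Of the 9 genes, 7 differed between the stages in each genotype, and no difference between the genotypes passed the test. From 1 to 2 dpf, 5 of the 9 genes rose and 2 fell in WT, and the same numbers rose and fell in fbn3-/-. The gain was 18-fold for gpnmb in WT and between 2.81-fold and 3.25-fold for xdh, pnp4a and ltk, while pts and tfec fell and gch2 and aox5 did not pass the test. Tests were edgeR's quasi-likelihood F test, with the false discovery rate (FDR) from Benjamini-Hochberg adjustment over the 23555 genes, and a gene passed at an FDR under 0.05. In WT, 27% of all genes passed as higher and 27.6% as lower at 2 dpf, and in fbn3-/- 29.2% and 27%, so that stage changes were common over the whole table.

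The first pteridine enzyme, gch2, had levels at 1 dpf that overlapped those at 2 dpf. Its level in WT at 1 dpf was 394, 351, 204 and 208 CPM in replicates 1, 2, 4 and 5, with the 2 libraries of the lower set above both of the higher set. In fbn3-/- at 1 dpf it was 366, 276 and 183 CPM. At 2 dpf it was 258, 199.6 and 232 CPM in WT and 209, 294, 322, 189 and 202 CPM in fbn3-/-. All 4 groups overlapped, and the order of the group means, WT at 1 dpf, fbn3-/- at 1 dpf, fbn3-/- at 2 dpf and WT at 2 dpf, ran from 289 to 229.8 CPM and no neighbours in it differed beyond the spread between libraries. The stage change of gch2 did not pass the test in WT (log2 fold change -0.33, SE 0.27, FDR 0.314) or in fbn3-/- (-0.18, SE 0.25, FDR 0.573).

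The second enzyme of the pathway, pts, fell. It was at 42.9, 51.3, 21.6 and 29.8 CPM in the 4 WT libraries at 1 dpf and at 24.2, 13.6 and 17.7 CPM in WT at 2 dpf, where only the highest library, replicate 1, overlapped the earlier stage. The fitted change in WT was -0.98 on the log2 scale (SE 0.25, FDR 0.00364), or 0.509-fold. In fbn3-/- pts was at 29.5, 36.6 and 34.7 CPM at 1 dpf and at 11.9, 16.5, 16.0, 12.9 and 15.3 CPM at 2 dpf, with no overlap, and fell by 1.21 on the log2 scale (SE 0.23, FDR 3.29e-04). This was the only one of the 9 genes that passed a log2 change below -1 in either genotype, a size reached by 9.4% of all genes in WT and by 8.36% in fbn3-/-.

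Of the later pterin enzymes, xdh rose and aox5 did not pass the test. RefSeq also lists xdh as an older name of aox5, and the xdh row here is a separate gene. The part of xanthophores in its values was not tested. The xdh levels at 1 dpf were 6.56, 6.96, 3.56 and 5.03 CPM in WT and 7.03, 5.03 and 3.35 CPM in fbn3-/-. At 2 dpf they were 14.5, 16.3 and 15.7 CPM in WT and 16.3, 15.1, 18.7, 18.2 and 20.5 CPM in fbn3-/-, all above every library at 1 dpf. The rise was 2.81-fold in WT (log2 fold change 1.49, SE 0.22, FDR 4.61e-05) and 3.50-fold in fbn3-/- (1.81, SE 0.23, FDR 7.61e-06). For aox5, a standard marker of differentiating xanthophores, WT libraries were at 63.5, 72.4, 66.4 and 74.8 CPM at 1 dpf and at 40.2, 57.7 and 61.3 CPM at 2 dpf. The later libraries all lay below the earlier ones, yet the change did not pass the test (-0.38, SE 0.19, FDR 0.105). It passed in 1 of 26 other settings, with the library set as a term (-0.46, FDR 0.0317). In fbn3-/- the aox5 levels overlapped, with 71.9, 69.0 and 50.3 CPM at 1 dpf and 37.6 to 69.0 CPM (median 62.3) at 2 dpf, and the change was -0.18 (SE 0.18, FDR 0.418).

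Of the iridophore genes, gpnmb changed most with stage. It was at 3.26, 1.72, 2.94 and 4.28 CPM in WT at 1 dpf and at 34.4, 77.8 and 48.9 CPM in WT at 2 dpf. In fbn3-/- it was at 4.73, 1.02 and 0.379 CPM at 1 dpf and at 59.4, 50.6, 52.1, 40.8 and 39.0 CPM at 2 dpf. Even the lowest library at 2 dpf held several times the level of the highest at 1 dpf. The rise was 18-fold in WT (95% interval 8.51 to 38.2, FDR 6.32e-06) and 24.6-fold in fbn3-/- (10.7 to 56.7, FDR 5.52e-06). In fbn3-/- the size rests on replicate 1 at 1 dpf, without which the log2 fold change was 6.20 instead of 4.62.

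The purine nucleoside phosphorylase pnp4a and the receptor ltk rose in both genotypes. For pnp4a, WT libraries were at 7.98, 9.19, 11.5 and 10.3 CPM at 1 dpf and at 21.6, 40.0 and 27.0 CPM at 2 dpf, and fbn3-/- libraries at 10.5, 7.57 and 5.97 CPM and at 35.7, 28, 27.8, 22.4 and 24.7 CPM. The rise was 3.02-fold in WT (95% interval 2.18 to 4.18, FDR 2.08e-05) and 3.47-fold in fbn3-/- (2.48 to 4.86, FDR 7.54e-06). For ltk, WT libraries were at 2.60, 2.20, 2.49 and 3.51 CPM at 1 dpf and at 6.74, 10.2 and 8.99 CPM at 2 dpf, and fbn3-/- libraries at 4.30, 2.94 and 2.77 CPM and at 11.7, 9.93, 11, 9.46 and 7.23 CPM. Neither gene had a library at 2 dpf that reached down to the levels of 1 dpf. The rise of ltk was 3.25-fold in WT (2.37 to 4.45, FDR 8.48e-06) and 2.97-fold in fbn3-/- (2.18 to 4.04, FDR 1.26e-05).

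The shared progenitor factor tfec went down, while gpnmb, pnp4a and ltk went up. Its WT libraries were at 10.1, 8.99, 9.79 and 9.05 CPM at 1 dpf and at 4.62, 6.72 and 5.58 CPM at 2 dpf. In fbn3-/- it was at 9.91, 11.7 and 11.3 CPM at 1 dpf and at 6.09, 5.83, 5.18, 5.29 and 5.72 CPM at 2 dpf. No library at 2 dpf reached those at 1 dpf, and tfec was among the steadiest of the 9 genes within a group, with a coefficient of variation between 5.97% and 18.7%. The fall was to 0.595-fold in WT (log2 fold change -0.75, SE 0.13, FDR 1.93e-04) and to 0.510-fold in fbn3-/- (-0.97, SE 0.12, FDR 6.91e-06).

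The endothelin receptor ednrba rose least. It was at 4.26, 5.22, 3.12 and 3.05 CPM in WT at 1 dpf and at 4.48, 6.69 and 6.49 CPM in WT at 2 dpf, where replicate 1 stayed within the range of the earlier stage. The rise of 1.5-fold in WT passed the test (log2 fold change 0.58, SE 0.20, FDR 0.0203) but not after leaving out any 1 of 4 libraries, namely WT replicate 4 (FDR 0.0651) or 5 (0.0541) at 1 dpf and replicate 2 (0.0631) or 3 (0.0786) at 2 dpf, all of the higher set. Within the lower set the WT change was -0.04 on the log2 scale, and within the higher set 1.17. In fbn3-/- ednrba was at 4.21, 3.78 and 3.13 CPM at 1 dpf and at 6.18, 6.21, 6.54, 5.58 and 5.13 CPM at 2 dpf, without overlap, and rose 1.60-fold (95% interval 1.21 to 2.13, FDR 0.00708).

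The stage changes of the 9 genes are set here beside those of the whole table. In WT, 4 of the 9 genes rose with a log2 fold change above 1, against 17.7% of all genes, and in fbn3-/- 4 of 9 against 19.3%. Groups did not overlap for 4 rising and 2 falling genes in WT, where 25.7% and 24% of all genes did so, and for 5 rising and 2 falling genes in fbn3-/-, where the shares were 29% and 27.3%. The median log2 fold change of the 9 genes was 0.58 in WT and 0.68 in fbn3-/-, against -0.04 and 0.00 over all genes. The stage changes of the 2 genotypes did not differ for any of the 9 genes in the interaction test, which 0.00425% of all genes (1 gene) passed and in which 5.51% had an unadjusted P under 0.05. The interaction estimates ran from -0.23 (pts, SE 0.34) to 0.45 (gpnmb, SE 0.71), with every FDR at 0.905 or above and 0 of 9 unadjusted P values under 0.05. DESeq2 also called 0 of 9.

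**Figure D2:**
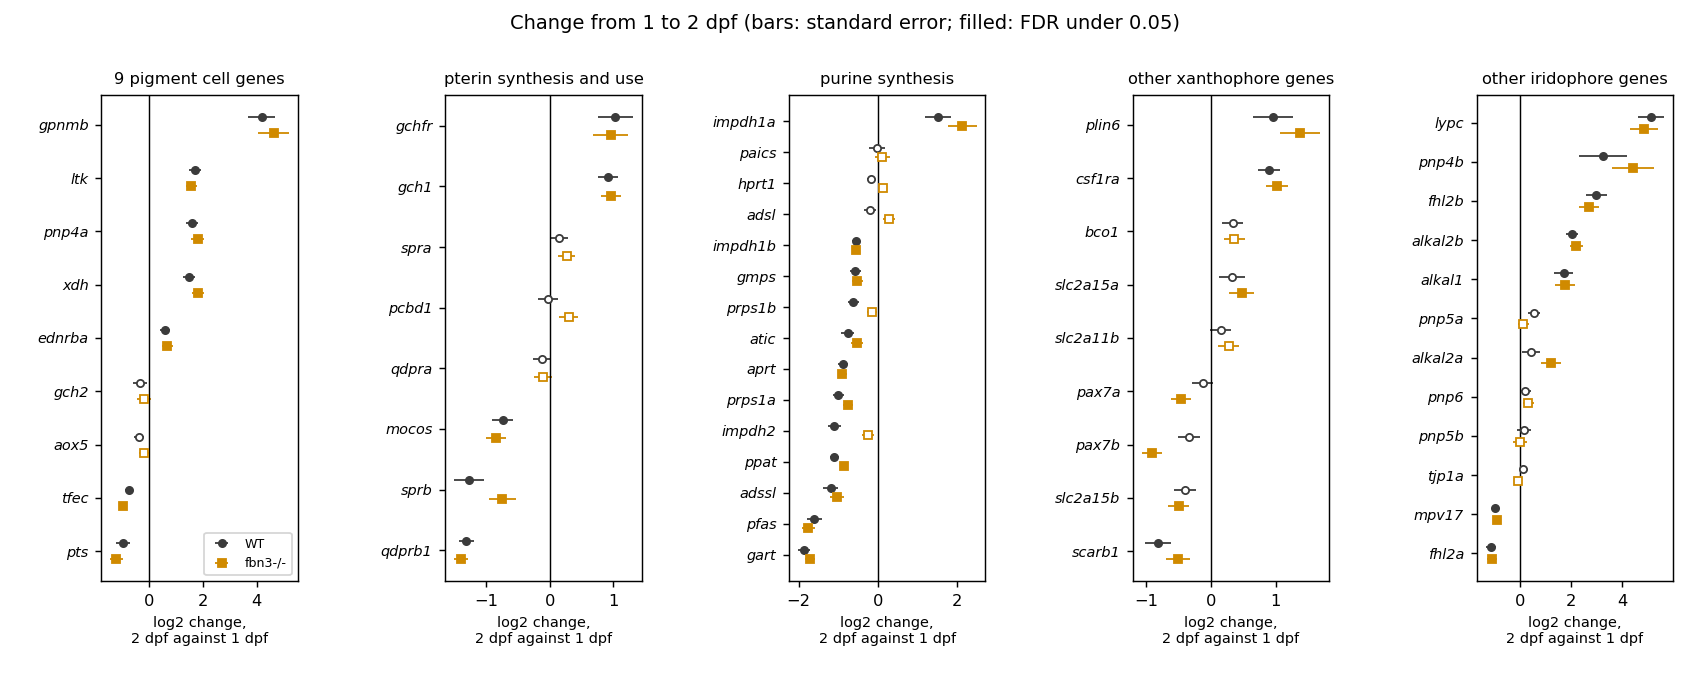
Log2 fold change from 1 to 2 dpf (x axes) of the 9 genes and of 4 lists of related genes, in WT (dark circles) and fbn3-/- (orange squares), with standard errors as bars and filled symbols at an FDR under 0.05. The iridophore genes gpnmb, ltk and pnp4a lie right of 0 in both genotypes, and most genes of purine synthesis lie left of it.

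Related genes moved in part with the 9. Of 8 further genes of pterin synthesis and use that were tested, 2 rose and 3 fell with stage in each genotype. Among these, qdprb1, a dihydropteridine reductase that recycles the pterin cofactor, fell by 1.31 on the log2 scale in WT (SE 0.12, FDR 4.41e-07) and by 1.40 in fbn3-/- (SE 0.11, FDR 1.00e-07). The other GTP cyclohydrolase gene, gch1, which serves neurotransmitter synthesis, rose by 0.92 (SE 0.16, FDR 1.73e-04) in WT and by 0.97 (FDR 8.57e-05) in fbn3-/-. The median change of the list was -0.07 in WT and 0.08 in fbn3-/-, close to that of all genes.

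Of 9 other xanthophore genes, 2 rose and 1 fell in WT, and 3 rose and 4 fell in fbn3-/-. The receptor csf1ra, which xanthophores need and which macrophages share, went from 5.93 to 10.9 mean CPM in WT (log2 fold change 0.89, SE 0.17, FDR 4.26e-04) and rose by 1.02 in fbn3-/- (SE 0.17, FDR 1.14e-04). The carotenoid uptake receptor scarb1 fell by 0.82 in WT (SE 0.20, FDR 0.00302), and its change in fbn3-/- was -0.51 (SE 0.19, FDR 0.0295). The xanthophore specification factor pax7b fell by 0.91 in fbn3-/- (SE 0.16, FDR 1.68e-04), and its change in WT, -0.35 (SE 0.17), had an FDR of 0.0951. In the interaction test 0 of these 9 genes passed.

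Of 12 other iridophore genes tested, 5 rose and 2 fell in WT, and 6 rose and 2 fell in fbn3-/-. The gene lypc, enriched in iridophores, went from 0.180 to 5.67 mean CPM in WT (log2 fold change 5.13, SE 0.52, FDR 9.69e-07) and rose by 4.86 in fbn3-/- (SE 0.55, FDR 2.37e-06). The ligand gene alkal2b rose by 2.04 in WT (SE 0.24, FDR 4.20e-06) and by 2.22 in fbn3-/- (SE 0.24, FDR 1.70e-06), alongside its receptor gene ltk. A further ltk ligand gene, alkal1, chosen for mention after its values were seen, rose by 1.72 in WT (FDR 9.39e-04) and by 1.78 in fbn3-/- (FDR 0.00108). Its level was low, at 0.162 mean CPM at 1 dpf and 0.486 at 2 dpf in WT. The ligand gene alkal2a did not pass in WT (0.43, FDR 0.325) and rose by 1.21 in fbn3-/- (FDR 0.0177). The median change of the list was 0.49 in WT and 0.77 in fbn3-/-.

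The list of purine synthesis, the source of guanine, held genes of the de novo pathway and the salvage enzymes hprt1 and aprt. In WT, 11 of 15 genes tested fell and 1 rose, with a median of -0.76, and in fbn3-/- 9 fell and 1 rose, with a median of -0.53. The gene gart, encoding an enzyme of several steps of the pathway, fell by 1.87 in WT (SE 0.15, FDR 1.53e-07) and by 1.72 in fbn3-/- (SE 0.14, FDR 8.85e-08). The gene of the committed step, ppat, fell by 1.11 in WT (SE 0.11, FDR 1.09e-06), and its change in fbn3-/- was -0.86 (FDR 4.56e-06). The gene pfas fell by 1.76 in fbn3-/- (SE 0.17, FDR 6.74e-07), and its change in WT was -1.61 (FDR 5.29e-06). The single gene that rose, singled out after its values were seen, was impdh1a (1.52 in WT, FDR 0.00131, and 2.13 in fbn3-/-, FDR 1.09e-04). It encodes an IMP dehydrogenase on the branch to guanine nucleotides. The other IMP dehydrogenase genes of the list, impdh1b and impdh2, fell in WT (-0.57, FDR 4.14e-05, and -1.10, FDR 3.95e-05). Their WT means went from 220 to 149 and from 141 to 65.6 CPM, and that of impdh1a from 2.00 to 5.67 CPM. In fbn3-/- impdh1b also fell (-0.57, FDR 1.83e-05), and the change of impdh2 (-0.26) did not pass. All dividing cells use purine synthesis, and the part of pigment cells in these values was not tested.

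Markers of other cells that can hold the same transcripts also moved with stage. The summed level of 15 melanophore genes was 407 to 707 CPM in WT at 1 dpf and 938 to 1103 CPM at 2 dpf, where 8 rose and 1 fell, and in fbn3-/- it was 224 to 636 CPM and 737 to 974 CPM, where 7 rose and 1 fell. The 1 that fell was mitfa in both genotypes (log2 fold change -0.97 in WT and -0.91 in fbn3-/-). In WT the largest parts of the sum at 2 dpf were tyrp1b, pmela and dct, at 302, 244 and 161 mean CPM. Whether this RNA came from melanophores or from retinal pigment epithelium was not tested. The 4 genes of the retinal pigment epithelium summed to 35.5 to 50.2 CPM in WT at 1 dpf and 129 to 148 CPM at 2 dpf, and 3 of the 4 rose, while in fbn3-/- they summed to 33.0 to 43.9 CPM and 102 to 146 CPM and all 4 rose. The 7 macrophage genes summed to 35.9 to 47.8 CPM and 42.1 to 63.0 CPM in WT, with 4 up and 1 down, and to 31.7 to 49.9 CPM and 54.7 to 63.6 CPM in fbn3-/-, with 4 up. These 2 lists bear on gpnmb, and the part of these cells in its rise was not tested. The 9 neural crest genes summed to 324 to 372 CPM and 453 to 495 CPM in WT, with 3 up and 3 down, and to 364 to 409 CPM and 427 to 478 CPM in fbn3-/-, with 3 up and 5 down. Of these sums, tfap2a alone made up 115 mean CPM at 1 dpf and 231 at 2 dpf in WT, and 121 and 233 in fbn3-/-. The 3 that fell in WT were crestin (log2 fold change -1.52), snai1b (-1.20) and pax3a (-1.18). The sums thus do not stand for every gene of the list. The 4 liver genes summed to 2701 to 3416 CPM and 3040 to 3678 CPM in WT and to 2583 to 2904 CPM and 3117 to 4416 CPM in fbn3-/-, and 3 rose and 1 fell in each genotype. Every gene of these 5 lists had enough counts to be tested.

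Loss of fbn3 was not accompanied by a detectable change of any of the 9 genes. At 1 dpf, 0 of 9 passed the test, against 0.00425% of all genes (1 gene, fbn2b), and 0 of 9 had an unadjusted P under 0.05, against 7.34% of all genes. At 2 dpf it was again 0 of 9 by FDR, against 0.233% (55 genes), and 0 of 9 by unadjusted P, against 10.4%. The genotypes overlapped for all 9 genes at both stages, where 5.88% of all genes at 1 dpf and 6.19% at 2 dpf did not overlap. DESeq2 and edgeR's likelihood ratio test likewise called 0 of 9 at each stage. The median log2 fold change of the 9 genes was -0.11 at 1 dpf and 0.00 at 2 dpf, against -0.03 and 0.01 over all genes.

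**Figure D3:**
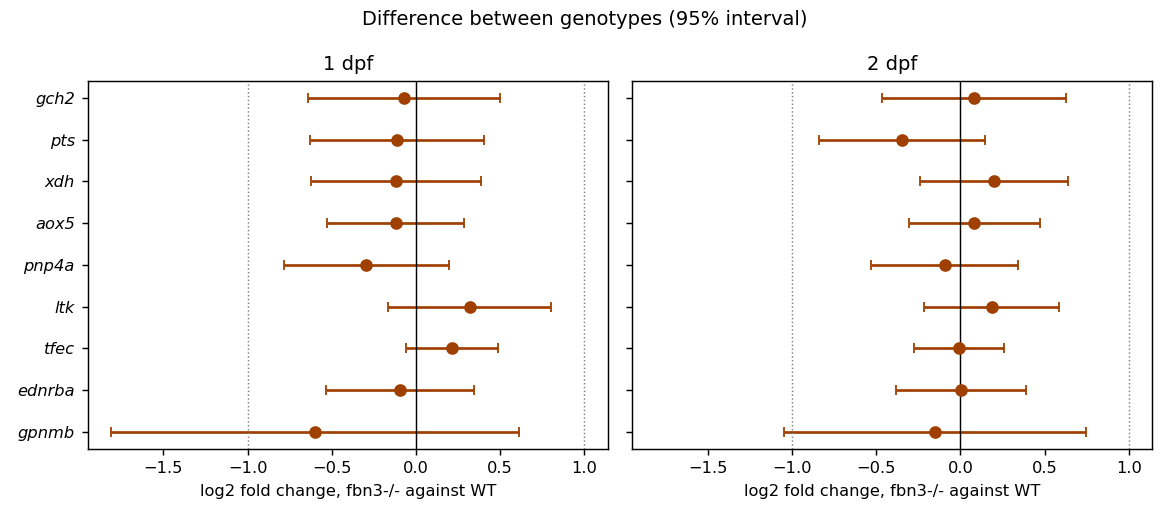
Log2 fold change of fbn3-/- against WT (x axes) for each of the 9 genes at 1 dpf (left) and 2 dpf (right), with 95% intervals as bars and dotted lines at -1 and 1. Every interval crosses 0, and only those of gpnmb reach -1.

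The intervals give the sizes left by the fit of all groups, which treated pools as independent and had no term for library set. At 2 dpf, estimates from a single library set, given below, lay outside them for pnp4a, ltk, ednrba and tfec. The level of gch2 in fbn3-/- was 0.951-fold that of WT at 1 dpf (95% interval 0.641 to 1.41) and 1.06-fold at 2 dpf (0.725 to 1.54). For pts the ratio was 0.924 at 1 dpf (0.646 to 1.32) and 0.785 at 2 dpf (0.558 to 1.11, FDR 0.623), and for aox5 it was 0.919 (0.692 to 1.22) and 1.06 (0.808 to 1.39). A change by a factor of 2 thus lay outside the interval of each of these xanthophore genes at both stages. The same held for xdh, at 0.922 (0.650 to 1.31) and 1.15 (0.847 to 1.56).

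Among tfec and the iridophore genes, tfec had the narrowest intervals, with a ratio of 1.16 at 1 dpf (0.959 to 1.40, FDR 0.732) and 0.994 at 2 dpf (0.826 to 1.20). For ltk the ratio was 1.25 (0.890 to 1.75, FDR 0.775) and 1.14 (0.862 to 1.5), for pnp4a 0.815 (0.580 to 1.14, FDR 0.792) and 0.937 (0.692 to 1.27), and for ednrba 0.936 (0.690 to 1.27) and 1.00 (0.766 to 1.31). The exception was gpnmb, whose ratio of 0.660 at 1 dpf had an interval from 0.285 to 1.53 and whose ratio of 0.900 at 2 dpf had one from 0.483 to 1.68 (FDR 0.927). For gpnmb, a halving lay inside the interval at both stages.

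The wide interval of gpnmb at 1 dpf came with fbn3-/- libraries that differed among themselves. Replicate 1 (4.73 CPM, 318 reads) was above every WT library, and replicates 2 (1.02 CPM, 67 reads) and 3 (0.379 CPM, 38 reads) were below every WT library. The coefficient of variation in this group was 115%, against 34.6% in WT. Without replicate 1 the log2 fold change was -2.18 (FDR 0.0758) instead of -0.60, and without replicate 3 it was -0.04.

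Replicate 1 was the highest and replicate 3 the lowest of the group for gch2, xdh, aox5, pnp4a, ltk and ednrba as well, while replicate 1 was the lowest for pts and tfec. A stage score placed each library between the mean of WT at 1 dpf (score 0) and at 2 dpf (score 1) by 500 genes other than the 9. The score was 0.0449 for replicate 1, -0.0841 for replicate 2 and -0.0950 for replicate 3, and 0.0605, -0.00147, -0.0165 and -0.0425 for WT replicates 1, 2, 4 and 5. The summed melanophore level, which was 636, 324 and 224 CPM in the 3 fbn3-/- libraries and 707, 495, 505 and 407 CPM in the WT libraries, ran in nearly the order of the score. With the score as a term in the fit, the log2 fold change of gpnmb at 1 dpf was -0.49 (FDR 0.785). Whether the fbn3-/- pools 2 and 3 were younger or had fewer pigment cells was not tested.

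**Figure D4:**
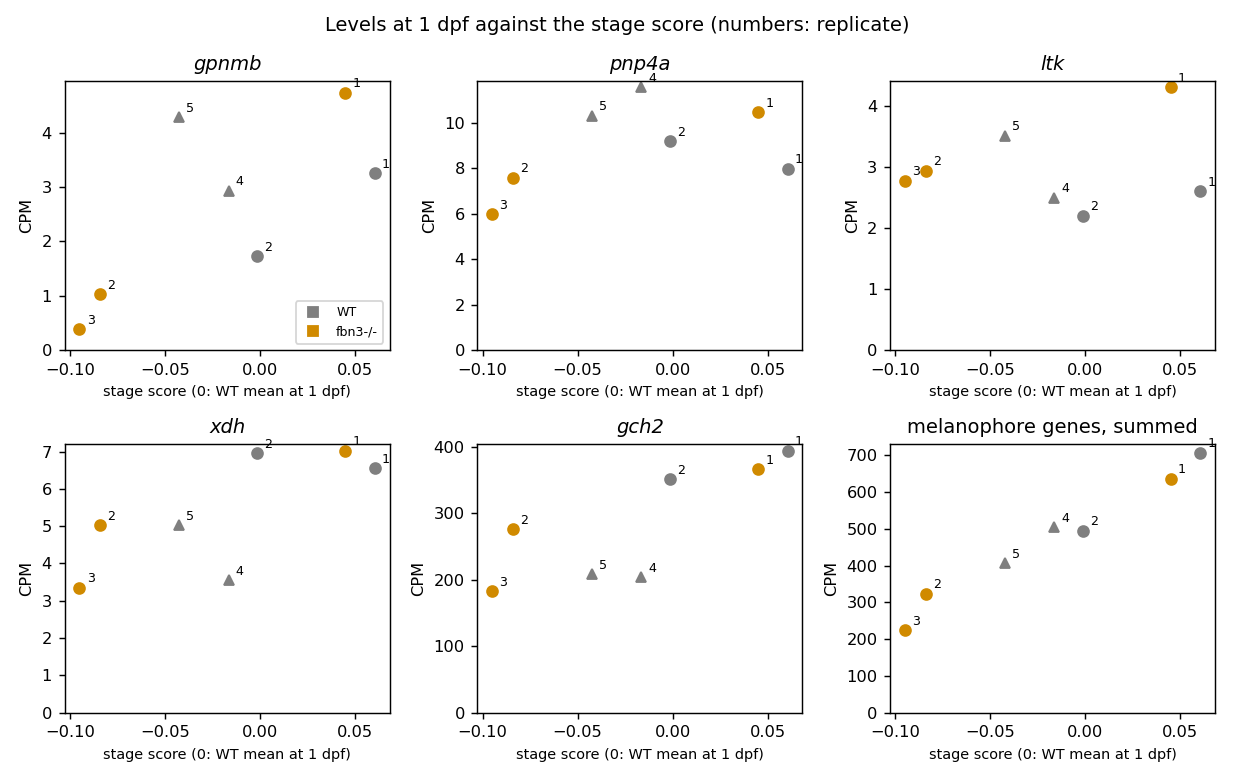
Levels in CPM (y axes, from 0) of gpnmb, pnp4a, ltk, xdh, gch2 and the summed 15 melanophore genes against the stage score (x axes) in the 7 libraries at 1 dpf, numbered by replicate, with WT in grey, fbn3-/- in orange, circles for lower and triangles for higher library numbers. The fbn3-/- replicates 2 and 3 have the lowest scores, -0.0841 and -0.0950, and the lowest gpnmb and melanophore levels.

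Genes of the melanophore list were lower in fbn3-/- for 13 of 15 genes at 1 dpf (median log2 fold change -0.37) and for 14 of 15 at 2 dpf (median -0.24). Of these, 0 of 15 passed the test at either stage, and which pigmented cells the values came from was not tested. Neural crest genes were higher for 8 of 9 at 1 dpf (median 0.24) and for 4 of 9 at 2 dpf (median -0.09), and 0 of 9 passed. In the lists of pterin, xanthophore, iridophore and purine genes, 0 genes passed between genotypes at either stage, with medians between -0.12 and -0.00389 at 1 dpf and between -0.14 and 0.10 at 2 dpf.

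The genotype difference of several genes at 2 dpf differed in sign between the library sets, and a dependence on the set was not tested. At 2 dpf the log2 fold change of fbn3-/- against WT in the lower set, which held 1 WT library, was 0.67 for ltk, 0.47 for pnp4a, 0.63 for gpnmb, 0.47 for ednrba and 0.28 for tfec. In the higher set, with 2 libraries of each genotype, the values were -0.25, -0.56, -0.72, -0.35 and -0.22 in the same order. These 5 genes thus had opposite signs in the 2 sets. All lower-set values rest on the same WT library, and the share of all genes with opposite signs was not computed. Of the pteridine and xanthophore genes, xdh (0.18 and 0.22), aox5 (0.29 and 0.08) and pts (-0.73 and -0.21) kept their sign, and gch2 (0.07 and -0.20) did not. At 1 dpf, in the lower set, the values were -0.42 for gch2, -0.47 for pts, -0.39 for xdh, -0.07 for aox5, -0.09 for pnp4a, 0.50 for ltk, 0.23 for tfec, -0.35 for ednrba and -0.28 for gpnmb.

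The stage changes in WT were also computed in each set, with 1 WT library at 2 dpf in the lower and 2 in the higher set. The rise of gpnmb was 3.88 on the log2 scale in the lower and 4.23 in the higher set, that of ltk 1.55 and 1.77, that of pnp4a 1.38 and 1.69, and that of xdh 1.16 and 1.99. The falls were -0.99 and -0.55 for tfec and -0.91 and -0.63 for pts. The change of aox5 was -0.71 and -0.17. The signs differed between the sets for gch2 (-0.48 and 0.14) and ednrba (-0.0392 and 1.17). All fbn3-/- libraries at 1 dpf were in the lower set, where the stage changes in fbn3-/- were 4.79 for gpnmb, 1.72 for ltk, 1.95 for pnp4a, 1.73 for xdh, 0.78 for ednrba, -0.94 for tfec, -1.17 for pts, -0.34 for aox5 and 0.01 for gch2.

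Within the groups, gpnmb, ltk and pnp4a varied together, while ednrba did so less, with an r of 0.32 with pnp4a, 0.26 with ltk and 0.27 with gpnmb. After the mean of its group was taken from each of the 15 libraries, the log2 levels of ltk and gpnmb had a Pearson r of 0.78 (Spearman rho 0.90), those of pnp4a and gpnmb 0.74 (rho 0.78), and those of pnp4a and ltk 0.71 (rho 0.71). Without the 2 libraries farthest from the median of the first gene of the pair, r was 0.71, 0.63 and 0.60. Over the libraries of the lower set (n = 9) r was 0.85, 0.78 and 0.87, and over those of the higher set (n = 6) it was 0.87, 0.78 and 0.48. For all values of r by set, deviations were still taken from the mean of the whole group, so they include differences between the sets. These correlations are descriptive and without a test, since libraries share their depth and set, and pools can differ in developmental progress.

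Of the other pairs, gch2, xdh and ednrba were positively correlated with each other. The r of gch2 with xdh was 0.66 (rho 0.62), that of gch2 with ednrba 0.63 (rho 0.61), and that of xdh with ednrba 0.63 (rho 0.64). Without the 2 farthest libraries r was 0.53, 0.59 and 0.51, in the lower set 0.80, 0.56 and 0.71, and in the higher set 0.56, 0.82 and 0.45. The pteridine gene pts had an r of 0.61 with gch2 (rho 0.61, 0.66 without the 2 farthest libraries). Its r with xdh was 0.40 (rho 0.30) and with ednrba 0.27 (rho 0.12), and both turned negative without the 2 farthest libraries (-0.0864 and -0.26). With pnp4a, ltk and gpnmb, pts had an r of -0.65 (rho -0.62), -0.51 (rho -0.54) and -0.43 (rho -0.53). The 5 genes of the whole table most like aox5 by the same measure were gga3a (r = 0.90), prc1b (0.86), the pterin gene sprb, a sepiapterin reductase (0.85), znf996 (0.81) and si:dkey-170l10.1 (0.81). Those most like pnp4a were prkd1 (0.94), AMDHD1 (0.93), pdcd4b (0.92), slc12a5b (0.92) and cyp2aa2 (0.92). These are the highest r among all 23555 genes over 15 libraries, and nothing on shared control follows from them.

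**Figure D5:**
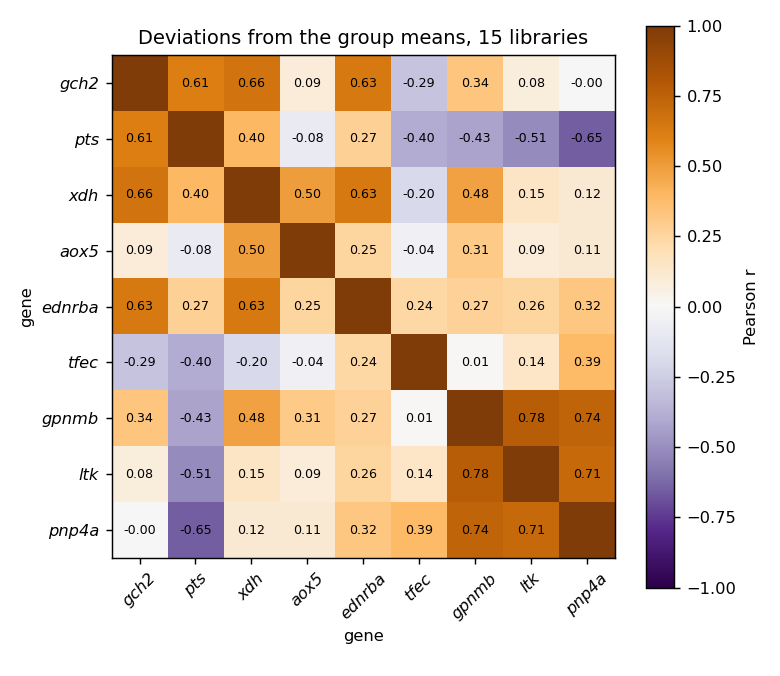
Pearson r (colour and number) between each pair of the 9 genes over the 15 libraries, computed on log2 levels after each group's mean was taken away. The block of gpnmb, ltk and pnp4a at the lower right holds values from 0.71 to 0.78, and pts is negative with all 3 of these genes.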

How the data were processed

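Per the labels' processing notes, the authors checked reads with FastQC 0.11.9, trimmed them with Trim Galore 0.6.6, aligned them to GRCz11 with STAR 2.7.6a and counted them per gene with featureCounts of Subread 2.0.0. The libraries were made with a stranded total RNA kit, and the strand setting and the annotation of the counting are not given in the sources used here. The deposited values are raw whole-number counts. The table has 23 count columns. Those of 15 listed samples were found by name, and the remaining 8 columns were left out. For 1 of the 16 samples in the list (WT at 1 dpf, replicate 3) no column name fitted.

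The 9 genes were found by exact gene name. RefSeq (GRCz12tu) also lists xdh as an older name of aox5, and the 2 rows are separate here. Genes and lists were chosen with earlier results of these data known. Counts were analysed in R 4.3.3 with edgeR 4.0.16 and limma 3.58.1. Genes were filtered with filterByExpr (minimum count 10, minimum total 15), libraries scaled with TMM, and all 4 groups fitted with 1 coefficient each by the quasi-likelihood method (legacy set to FALSE), with Benjamini-Hochberg adjustment over 23555 genes. Intervals are at 95%. CPM over libraries is given as mean ± SD, and log2 CPM used a prior count of 2. Besides the 9 genes, those named were the 2 with the lowest FDR per list and genotype in the stage contrasts, and the 5 most like aox5 and pnp4a. Added after their values were seen were alkal1, alkal2a, impdh1a, impdh1b, impdh2, and from the marker lists mitfa, tyrp1b, pmela, dct, tfap2a, crestin, snai1b and pax3a. The genes hprt1 and aprt were named as salvage enzymes. The lists held 10 pterin, 9 xanthophore, 14 iridophore and 17 purine genes, of which 9, 9, 13 and 15 were in the table. Alternatives were RLE scaling, no filter, a minimum CPM of 1 in 3 or more libraries, DESeq2 1.42.0, the likelihood ratio test, the legacy method, separate fits, terms for replicate number, library set or stage score, each library left out, and, added after the data were seen, each library set alone. The scripts were tested on simulated counts with changes set in fbn3-/- at 2 dpf. The simulated libraries were drawn independently, without a stage difference, library sets or pairs, so recovery under the structure of the real libraries was not tested. At an FDR under 0.05, 51 of 100 genes with a 2-fold change in either direction and 88 of 100 with a 4-fold change were recovered. Of 152 calls, 13 (8.55%) were false, a share above the FDR threshold of 0.05. The replicates are labelled biological, but nothing says that pools came from separate clutches, so P values measure the spread between these pools. Sequences and promoters were not analysed here. Figures were drawn with Python 3.11.15 and matplotlib 3.10.9.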

Additional observations from a re-analysis of the deposited data

How the results depend on the processing

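Under the other settings, 26 at 1 dpf, 27 at 2 dpf and 24 for the interaction, 0 of the 9 genes passed between genotypes or in the interaction, with the lowest FDR between genotypes at 0.0758 at 1 dpf and 0.117 at 2 dpf, both for gpnmb. Of the 9, 7 passed with stage in fbn3-/- under every setting and 6 to 8 in WT. In WT the changes of pts, xdh, pnp4a, ltk, tfec and gpnmb passed throughout. The rise of ednrba did not pass in a separate fit (0.63, FDR 0.0514), with a replicate block (0.42, FDR 0.0937) or in the lower set (-0.0392). These values and those below are log2 fold changes.

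Signs of genes that did not pass turned as follows. At 1 dpf between genotypes, gch2 was 0.0979 and ednrba 0.0425 with the stage score as a term, and aox5 0.0307 with the library set as a term. With a library left out, gch2 ranged from -0.33 to 0.15, pts from -0.30 to 0.0996 and xdh from -0.41 to 0.13. The range was -0.21 to 0.0247 for aox5 and -0.20 to 0.0904 for ednrba. The value of gpnmb ranged from -2.18 to -0.0418 and kept its sign. At 2 dpf, gch2 was -0.0905 and ednrba -0.0575 with the library set as a term, where tfec was 0.0117. In the higher set gch2 was -0.20, ltk -0.25 and ednrba -0.35, and in the lower set pnp4a was 0.47, tfec 0.28 and gpnmb 0.63. With the stage score as a term, pnp4a was 0.0295, tfec 0.00829 and gpnmb 0.19. With the replicate block, aox5 was -0.0162 and tfec 0.00898. For ednrba the value was -0.0167 with RLE scaling, -0.0389 without a filter, -0.00319 with the CPM filter, -0.0113 by DESeq2 and -0.0128 in the separate fit. With a library left out, gch2 ranged from -0.0402 to 0.17, aox5 from -0.0834 to 0.20, pnp4a from -0.27 to 0.16, tfec from -0.13 to 0.10, ednrba from -0.16 to 0.0787 and gpnmb from -0.39 to 0.19. The stage change of gch2 was 0.14 in WT in the higher set. In fbn3-/- it was 0.0942 with the replicate block, 0.0300 with the library set as a term and 0.0104 in the lower set, and -0.40 to 0.0827 with a library left out. The interaction of pts was 0.11 with the replicate block and -0.46 to 0.00136 with a library left out, and that of gpnmb was -0.11 to 2.02.

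Over all genes, the number that passed at 1 dpf was 1, and 68 by DESeq2, 41 by the likelihood ratio test, 0 in a separate fit, 2 with the replicate block, 3 with the library set, 15 in the lower set, and 1 to 76 with a library left out, 76 being without fbn3-/- replicate 1. At 2 dpf it was 55, and 210, 151, 24, 124, 86 and 20 in the same order, 1079 in the higher set, 21 with the legacy method, and 13 to 455 with a library left out, 455 being without WT replicate 1. For the interaction it was 1, and 37 by DESeq2, 29 by the likelihood ratio test, 0 with the replicate block, 3 with the library set, 0 in the lower set, and 1 to 5 with a library left out. For the stage change in WT it was 12852, and 7827 in the lower set. The causes of these differences were not tested. Within a stage, 1 of 5 same-numbered pairs of WT and fbn3-/- libraries had a correlation of deviations over 0.1 (-0.16 to 0.16). Among pairs with different numbers it was 5 of 22 (-0.24 to 0.27). These few pairs cannot tell whether replicate numbers pair the libraries. Across the stages, same-numbered pairs ran from -0.22 (WT replicate 2) to 0.30 (WT replicate 1). The highest values were between WT libraries with neighbouring library numbers. They were 0.38 for replicate 4 at 1 dpf with replicate 2 at 2 dpf, and 0.39 for replicates 5 and 3. The main stage tests had no term for such pairs.

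How much of the width of the intervals comes from depth was not tested, and the fewest reads of any of the 9 genes were 38, of gpnmb in fbn3-/- at 1 dpf. No group of 4 or 5 libraries held a library flagged as far from the others in any of the 9 genes (0 of 18 groups).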
